A study of Homo sapiens with 32 samples.

Results

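The comparison described here set HEK293T cells that lost IGF2BP3 beside control HEK293T cells by sequencing of poly(A) RNA from whole cells, called total RNA. It holds 6 of the 32 samples of the series: 2 libraries of the IGF2BP3 knockout and 4 of the control, chosen by their labels alone. HEK293T is an embryonic kidney cell line that carries adenoviral genes and the SV40 large T antigen. The IGF2BP3 knockout is 1 clone, grown from a single sorted cell after transient transfection of non-integrating plasmids that carried 3 single guide RNAs against the gene together with GFP, and colonies were screened for loss of the protein. The control received CRISPR reagents with a non-targeting guide, and whether it is a clone or a pool is not given in the sources used here. The same study made IGF2BP1 and IGF2BP2 knockouts in the same cells and sequenced nuclear and cytoplasmic RNA. Knockout libraries 1 and 2 belong to batches 3 and 4 of the labels, and control libraries 1 to 4 to batches 1 to 4, so that control libraries 3 and 4 are the same-batch partners. The 2 IGF2BP2 knockout libraries of batches 3 and 4 share those controls.

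The IGF2BP proteins (IMP1, IMP2 and IMP3) bind mRNAs through KH and RRM domains, and are known for protecting bound transcripts, such as MYC, from decay and for reading m6A, a methyl mark on adenosine. IGF2BP1 and IGF2BP3 are oncofetal: they are abundant in the embryo, silent in most adult tissues and found again in many tumors. Interferon-stimulated genes are the antiviral programme that type I interferon switches on through JAK-STAT signalling, and the title of the series places IGF2BP proteins as suppressors of innate immune signalling.

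The control libraries held 17466110 to 23421796 counts and the knockout libraries 24690494 and 20105261. Values below are CPM, counts scaled to library size with TMM, and a gene is called where edgeR's quasi-likelihood F test, with genotype and batch as terms, gave a Benjamini-Hochberg adjusted p under 0.05. With batch as a term the fold changes rest on the same-batch pairs, and control libraries 1 and 2 serve to show the range of the controls. The 10 markers of HEK293T were present in all libraries, and 5 were called higher and 5 lower in the knockout. NEFM, VIM and CDH2 are among them, with log2 fold changes of -2.65, -0.99 and 1.11. Of 12 blood cell markers, HBG1, HBB, MPO and GATA1 were at 0 in all 6 libraries, and the summed level of that list was 2.89 to 4.01 CPM in controls and 6.82 to 7.33 CPM in the knockout. The fibroblast markers summed to 38.1 to 40.3 CPM in controls and 72.1 to 72.5 CPM in the knockout. Most of that sum was COL1A1, at 31.9 to 34.2 CPM in controls and 64.4 and 64.2 CPM in the knockout. PDGFRA rose by 1.38, and COL3A1 (-0.14) and PDGFRB (-0.16) were not called. The endothelial markers summed to 0.502 to 0.699 and 1.83 to 1.89 CPM, and the hepatocyte markers to 0.613 to 0.949 and 0.599 to 0.645 CPM. The squamous and cervical epithelium markers summed to 8.69 to 11.3 CPM in controls and 6.21 to 7.88 CPM in the knockout. The part of these small levels in the results was not tested. In bulk RNA, fewer cells of a type and less RNA per cell cannot be told apart. The 2 knockout libraries are repeat libraries of 1 clone, so the p-values measure the spread between libraries, and differences of this clone from the control line cannot be told apart from the loss of IGF2BP3.

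IGF2BP3 transcripts fell in the knockout without being lost. IGF2BP3 (chromosome 7, 23310209 to 23470467, minus strand, GRCh38, GENCODE 29) stood at 86.7, 85.9, 92.8 and 92.8 CPM in control libraries 1 to 4 and at 41.3 and 40.2 CPM in knockout libraries 1 and 2. Both knockout values lay below every control, a log2 fold change of -1.19 (SE 0.065, n = 2 knockout and 2 same-batch control libraries, edgeR adjusted p = 3.08e-15). It was -0.95 in nuclear and -1.22 in cytoplasmic RNA. In the IGF2BP2 knockout IGF2BP3 had -0.48, and the knockouts differed (edgeR adjusted p = 2.61e-10). The loss of the protein was screened by the submitters and is not measured here, and RNA of an edited gene can persist.

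The other two family members were called lower too. IGF2BP1 was at 503, 502, 464 and 426 CPM in the controls and at 308 and 335 CPM in the knockout. The groups did not overlap, and the log2 fold change was -0.47 (SE 0.062, edgeR adjusted p = 1.74e-07). IGF2BP1 had -0.415 in the IGF2BP2 knockout, and the difference between the knockouts did not pass the test (edgeR adjusted p = 0.441). IGF2BP2, at 112, 106, 82.7 and 79.05 CPM against 68.7 and 77.01 CPM, had a log2 fold change of -0.16 (edgeR adjusted p = 0.043), a call that was lost under 11 of the 19 alternatives, DESeq2 among them. Of 13 listed genes, the 3 IGF2BP genes and their oncofetal partners, 11 passed the filter on low counts. The IGF2BP genes are 3 of the 6 called lower, and of the partners 3 were called higher (IGF2, H19 and SALL4) and 3 lower (LIN28B, HMGA1 and HMGA2). These counts are to be read beside the 60.3% called among all genes tested. IGF2BP3 is the targeted gene, so its call is no result about the list. LIN28B, which blocks maturation of let-7 microRNAs, was at 96.7, 96.2, 107 and 104 CPM in controls and 59.2 and 56.5 CPM in the knockout, and fell by 0.86 on the log2 scale. The chromatin proteins HMGA1 and HMGA2, both let-7 targets in other systems, fell by 0.94 and 0.74. In the IGF2BP2 knockout LIN28B, HMGA1 and HMGA2 had -0.38, -0.90 and -0.43. The knockouts differed for LIN28B and HMGA2 (edgeR adjusted p = 1.92e-07 and 0.000334) and not for HMGA1 (0.575). SALL4, a stem cell transcription factor, rose from 2.61, 2.51, 2.45 and 2.83 CPM in controls to 6.55 and 6.82 CPM, a log2 fold change of 1.35. The long noncoding RNA H19 had a log2 fold change of 0.84 (edgeR adjusted p = 0.0442), a call lost under 7 alternatives.

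**Figure D1:**
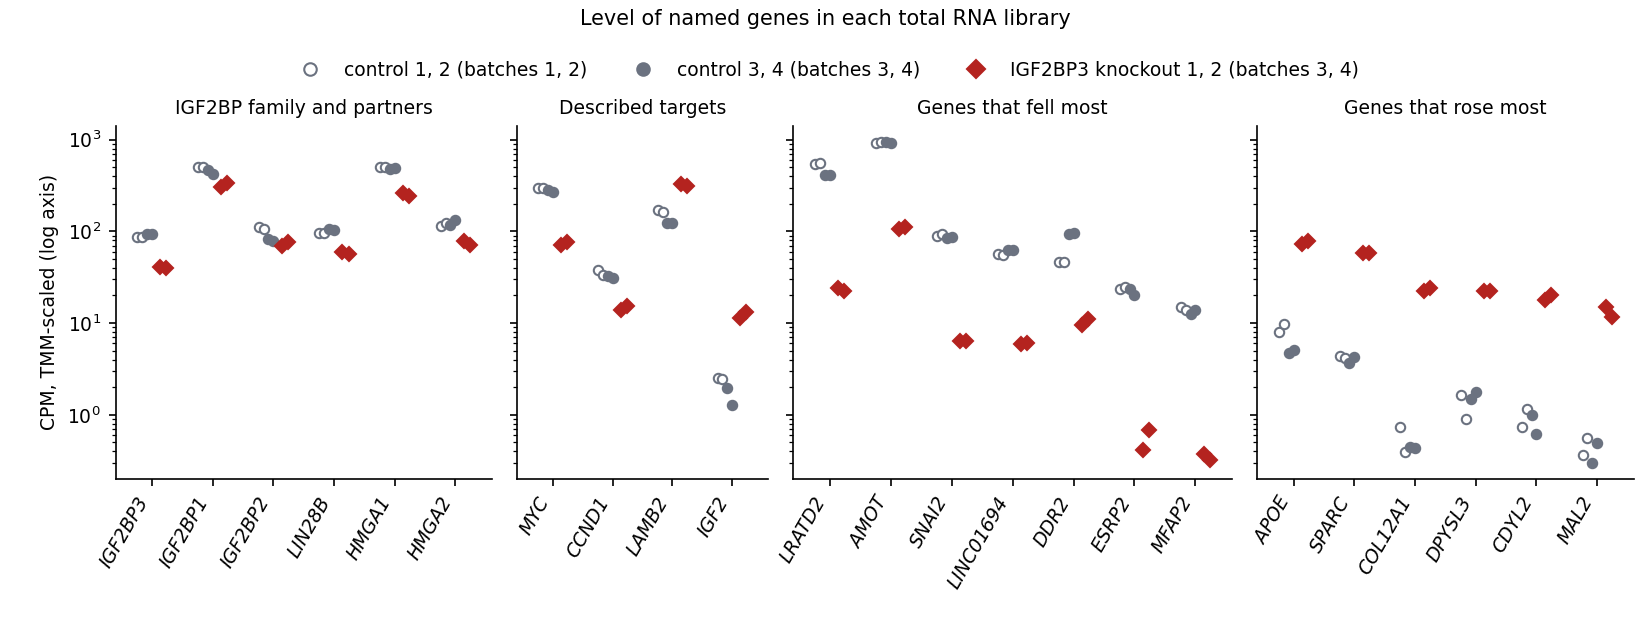
Level of named genes in each total RNA library, in CPM on a log axis, with 1 point per library: open circles for controls 1 and 2, filled circles for controls 3 and 4 and diamonds for IGF2BP3 knockout libraries 1 and 2. IGF2BP3 sits at 41.3 and 40.2 CPM in the knockout, below the 4 controls at 86.7, 85.9, 92.8 and 92.8 CPM.

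Among mRNAs described elsewhere as IGF2BP targets, MYC fell most. This growth-promoting transcription factor was at 297, 295, 281 and 267 CPM in the controls and at 71.2 and 76.6 CPM in the knockout. The groups were far apart, with a log2 fold change of -1.89 (SE 0.064, edgeR adjusted p = 9.15e-20), -2.04 in nuclear and -1.83 in cytoplasmic RNA. In the IGF2BP2 knockout the change was -0.73, and the 2 knockouts differed (edgeR adjusted p = 5e-15). CCND1, cyclin D1, was at 37.5, 33.6, 32.5 and 31.1 CPM against 13.8 and 15.3 CPM and fell by 1.14 on the log2 scale. IGF2, the growth factor whose mRNA gave the family its name, moved the other way: it was at 2.52, 2.45, 1.95 and 1.29 CPM in controls and 11.4 and 13.2 CPM in the knockout. Its log2 fold change was 2.88 (SE 0.18, edgeR adjusted p = 5.09e-14) against 1.47 in the IGF2BP2 knockout. LAMB2, a laminin chain, was at 169.9, 162, 123 and 124 CPM in controls and 325 and 316 CPM in the knockout, a rise of 1.38 against 1.33 in the IGF2BP2 knockout (edgeR adjusted p of the difference = 0.45). CD44, a hyaluronan receptor, had a log2 fold change of 1.52 at under 2 CPM, a call lost with DESeq2. Of the 30 listed targets, 10 were called higher, 14 lower and 6 neither (80% called), and their median of -0.10 changed sign with upper quartile scaling and without knockout library 2.

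The wider change was large in number. Of 18444 genes tested, 11126 (60.3%) were called: 5478 higher (29.7%) and 5648 lower (30.6%), with a median absolute log2 fold change of 0.58. At least 2-fold changes were called for 2804 genes (15.2%), 2161 higher (11.7%) and 643 lower (3.49%), and at least 4-fold changes for 711 genes higher and 79 lower. Both knockout libraries lay outside the range of the 4 controls for 12084 genes (65.5%), and 9981 genes were both called and outside that range. The sign was shared by both same-batch pairs for 11104 of the called genes. The count at 2-fold was 1764 when a mean of 1 CPM was required, and 237 on the log2(FPKM + 1) scale, which shrinks changes of low genes. Upper quartile scaling moved the median of all genes from 0.02 to 0.14 on the log2 scale, and with it 7088 genes were called higher and 4215 lower, 62.7% higher against 49.2% with TMM. Directions below are relative to the TMM scale, on which the median gene is near 0.

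**Figure D2:**
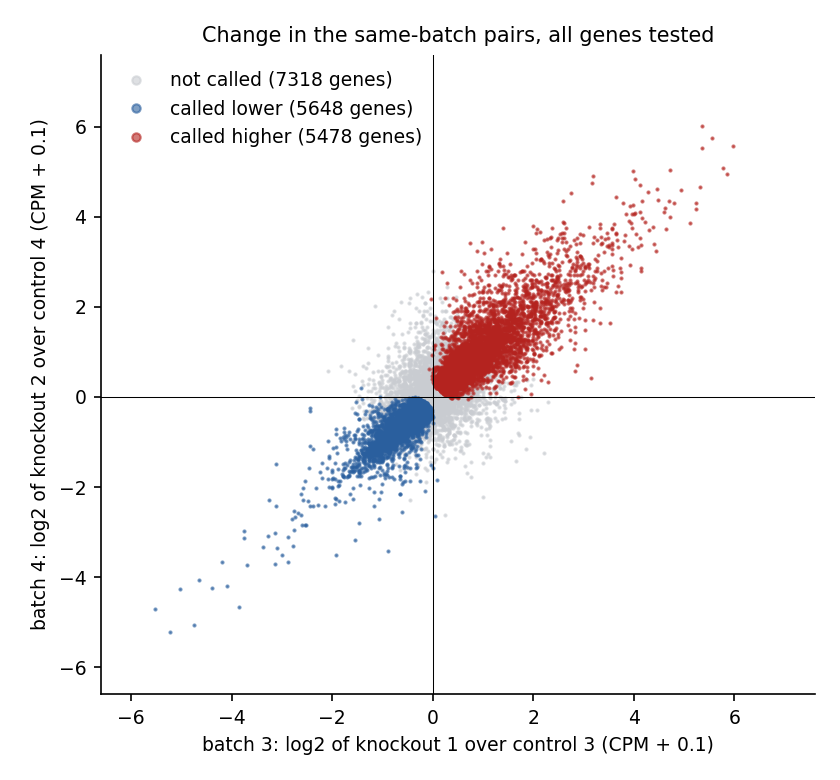
Log2 change (CPM plus 0.1) in the batch 4 pair against that in the batch 3 pair, 1 point for each of the 18444 genes tested, colored by call. Called genes lie along the diagonal in both directions, and 11104 of 11126 have the same sign in both pairs.

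Direction went with abundance. Of 2812 genes with a mean of 100 CPM and over, 1745 were called lower and 493 higher, with a median of -0.27, whereas the 5122 genes of 1 to 10 CPM held 2087 higher and 639 lower calls, with a median of 0.34. Long noncoding RNAs had a median of 0.36 and protein-coding genes of -0.03. More genes were detected in the knockout: 15731 and 15796 identifiers reached 1 CPM, against 14719 to 14881 in controls. All 4 controls were under 1 CPM for 1160 of the 2161 genes called at least 2-fold higher. Low genes could pass the filter on low counts through the knockout libraries alone, which favors rises among them. How much of the upward shift of low genes came from that was not tested. The IGF2BP2 knockout libraries detected 15554 and 15614 identifiers at that level, also above the controls they share.

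The genes that rose most include matrix, membrane and neuronal genes. COL12A1 (chromosome 6, 75084326 to 75206051, minus strand), a collagen bound to the surface of fibrils, was at 0.733, 0.390, 0.450 and 0.431 CPM in the controls and at 22.5 and 24.4 CPM in the knockout. Its log2 fold change was 5.70 (SE 0.20, edgeR adjusted p = 1.26e-19), beside 4.74 in the IGF2BP2 knockout. SPARC (chromosome 5, 151661096 to 151687165, minus strand), a secreted collagen-binding protein, was at 4.40, 4.12, 3.65 and 4.25 CPM in controls and at 58.5 and 58.2 CPM in the knockout. It rose by 3.89 (SE 0.11, edgeR adjusted p = 1.07e-21) and by 1.34 in the IGF2BP2 knockout, and the knockouts differed (edgeR adjusted p = 3.34e-19). APOE, a lipid carrier, was at 8.02, 9.75, 4.75 and 5.11 CPM against 72.8 and 77.7 CPM, a log2 fold change of 3.93 against 1.60 in the IGF2BP2 knockout. The others of the 10 were MAL2, a protein of membrane traffic (5.10), the chromodomain gene CDYL2 (4.50), the complement regulator SUSD4 (4.35), the kinase NRK (4.32), the actin-binding SHROOM2 (4.25), the glucuronyltransferase B3GAT1 (4.21) and the neuronal DPYSL3 (3.79). In all 10 both knockout libraries lay above the 4 controls, which the rule for naming them required.

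The genes that fell most include epithelial and mesenchymal regulators. ESRP2 (chromosome 16, 68229111 to 68238102, minus strand), an epithelial splicing regulator, was at 23.3, 24.97, 23.3 and 20.5 CPM in the controls and at 0.412 and 0.691 CPM in the knockout. Its log2 fold change was -5.34 (SE 0.18, edgeR adjusted p = 9.15e-20), against 0.26 in the IGF2BP2 knockout, and the knockouts differed (edgeR adjusted p = 1.74e-20). MFAP2 (chromosome 1, 16974502 to 16980835, minus strand), a protein of elastic microfibrils, was at 15.1, 13.99, 12.6 and 14.03 CPM against 0.374 and 0.322 CPM and fell by 5.22, with 0.23 in the IGF2BP2 knockout. SNAI2, a transcription factor of epithelial-mesenchymal transition known as Slug, was at 89.1, 93.02, 83.9 and 86.6 CPM in controls and 6.36 and 6.40 CPM in the knockout, and fell by 3.74. AMOT, a scaffold that binds the Hippo effector YAP, was at 917, 943, 933 and 915 CPM in controls and 106 and 113 CPM in the knockout. It fell by 3.08 (SE 0.063, edgeR adjusted p = 7.17e-25) against -0.88 in the IGF2BP2 knockout. LRATD2, at 544, 552, 408 and 408 CPM against 23.9 and 22.1 CPM, fell by 4.15, beside -3.79 in the IGF2BP2 knockout (edgeR adjusted p of the difference = 0.000219).

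DDR2, a collagen receptor kinase, was at 45.9, 46.4, 93.3 and 94.98 CPM in controls and 9.50 and 11.1 CPM in the knockout. Controls 1 and 2 held about as much as each other and less than controls 3 and 4, and the knockout was below both pairs, with a log2 fold change of -3.20. The remaining genes were LINC01694 (-3.38), the homeobox gene UNCX (-2.86), the GABA transporter SLC6A11 (-2.77) and the teneurin TENM1 (-2.73). TWIST2, a relative of SNAI2 in function, was at 3.21, 3.46, 3.15 and 2.71 CPM in controls and at 0 and 0.0461 CPM in the knockout, the latter 1 read.

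Changes in CPM are largest in abundant transcripts. NEAT1, the RNA scaffold of paraspeckles, was at 150.3, 153, 206 and 172 CPM in the controls and 785 and 925 CPM in the knockout, a log2 fold change of 2.18 (SE 0.076, edgeR adjusted p = 1.84e-19). FLNA, the actin crosslinker filamin A, was at 792, 785, 594 and 584 CPM against 1151 and 1126 CPM, a log2 fold change of 0.95, and -0.32 in the IGF2BP2 knockout. The mitochondrial MT-ND2 (0.54) and the RNA helicase gene DDX17 (0.49) rose less on the log2 scale. Among the falls, RPS2, a protein of the small ribosomal subunit, was at 3412, 3309, 3153 and 3421 CPM in controls and 1330 and 1186 CPM in the knockout, a log2 fold change of -1.39. HSP90AB1, a cytosolic chaperone, went from 1900, 1873, 2043 and 2016 CPM to 815 and 867 CPM (-1.27). The elongation factors EEF2 and EEF1A1 fell by 0.85 and 0.70. MT-CO1 had a log2 fold change of -0.24 in total RNA, a call lost under 7 alternatives, and 0.54 in nuclear RNA. RPS2 and EEF1A1 have processed pseudogenes that can share reads with them.

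Interferon-stimulated genes were mostly higher from a low level. Of 64 listed genes 47 passed the low-count filter: 31 were called higher, 4 lower and 12 neither, so 74.5% were called beside 60.3% of all genes. Their median log2 fold change was 0.86 beside 0.02 over all genes, and 0.33 in the IGF2BP2 knockout, which shares the controls. Low genes of any kind were shifted upward too: the median was 0.401 under 1 CPM and 0.345 at 1 to 10 CPM. The list was not compared with genes matched for level. Because the members that passed did so partly through the knockout libraries, these counts are a description of the list and no test of it. The same holds for each list below with fewer genes tested than listed, and the share called, given with each count, is to be read against 60.3%: a share near it is no result about the list. The share also went with level: 26.3% under 1 CPM, 53.2% at 1 to 10, 68.3% at 10 to 100 and 79.6% at 100 CPM and over. Genes of 100 CPM and over had a median of -0.27. Lists of abundant genes are therefore to be read against those values as well, and no list was matched for level. Among the 17 below the filter, MX2, OAS1 and OAS2 were at 0 in the 4 controls and at most at 0.150 CPM in the knockout, and RSAD2 and CCL5 were at 0 in all 6 libraries. The median ranged from 0.06 on the log2(FPKM + 1) scale to 0.99 over the 19 alternatives, and was positive in all of them.

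OAS3, an enzyme that senses double-stranded RNA and activates RNase L, was at 3.16, 2.79, 3.70 and 2.71 CPM in the controls and at 24.3 and 27.4 CPM in the knockout. The groups were far apart: the log2 fold change was 2.98 (SE 0.14, edgeR adjusted p = 6.99e-17) beside -0.21 in the IGF2BP2 knockout, and the knockouts differed (edgeR adjusted p = 1.93e-17). IFITM3, a membrane protein that blocks virus entry, was at 2.70, 2.79, 2.45 and 3.20 CPM against 13.4 and 10.96 CPM, a rise of 2.13 beside 0.58 in the IGF2BP2 knockout. It has close paralogs, IFITM1 and IFITM2, that can share reads. TRIM5, a restriction factor of retroviral capsids, was at 6.46, 5.91, 5.59 and 4.86 CPM against 16.5 and 17.3 CPM, a rise of 1.68 beside -0.27. IFI6 was at 4.81, 5.18, 5.10 and 4.31 CPM against 12.2 and 11.7 CPM (1.34). EPSTI1 was at 0.229, 0.948, 0.749 and 0.308 CPM in controls and 4.79 and 4.93 CPM in the knockout (3.13). In each of these 5 genes both knockout libraries lay above the 4 controls.

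The largest rises in the list came from genes near 0 in the controls. The nuclear body protein SP110 was at 0.275, 0.223, 0.200 and 0.185 CPM against 2.62 and 2.95 CPM (3.80), and TRIM22 at 0.367, 0.167, 0.0999 and 0.123 CPM against 0.898 and 1.57 CPM (3.37). GBP2, a guanylate-binding GTPase, was at 0, 0.0557, 0 and 0 CPM in controls, 1 read in all, and at 0.225 and 0.230 CPM in the knockout, a call lost under 4 alternatives. Against them stood LAP3, an aminopeptidase, at 88.2, 87.6, 90.4 and 93.4 CPM in controls and 42.99 and 45.04 CPM in the knockout: it fell by 1.06 on the log2 scale, and was -1.16 in the IGF2BP2 knockout. TRIM14 and EIF2AK2, the kinase PKR, fell by 0.52 and 0.27, and EIF2AK2 lost its call when the IGF2BP1 knockout libraries were added to the fit. The fourth gene called lower, ZC3HAV1, the antiviral protein ZAP, had -0.20, a call lost under 7 alternatives. ISG15, the ubiquitin-like modifier, was at 7.10, 5.52, 5.89 and 4.92 CPM against 3.97 and 4.61 CPM and did not pass the test (-0.35, edgeR adjusted p = 0.0589), beside 1.02 in the IGF2BP2 knockout. In nuclear RNA 31 of 45 members tested were called higher and 3 lower (all genes called: 55.6% of 18554), and in cytoplasmic RNA 32 of 47 higher and 7 lower (64.7% of 17913).

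The 250 bases before the annotated start of 5 of these genes (RefSeq, GRCh38.p14) are shown because interferon acts on such genes through the interferon-stimulated response element. They are written 5′ to 3′ on the gene's strand, with matches to GAAANNGAAA on either strand in capitals. The 5 were chosen after their values were seen: OAS3, IFI6, IFITM3 and EPSTI1 rose and LAP3 fell.
OAS3, chr12:112938224-112938473, plus strand: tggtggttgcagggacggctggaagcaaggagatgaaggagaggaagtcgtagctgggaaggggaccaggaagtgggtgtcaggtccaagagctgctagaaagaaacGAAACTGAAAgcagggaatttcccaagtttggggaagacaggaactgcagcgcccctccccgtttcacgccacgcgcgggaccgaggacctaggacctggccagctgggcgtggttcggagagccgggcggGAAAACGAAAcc
IFI6, chr1:27672193-27672442, minus strand: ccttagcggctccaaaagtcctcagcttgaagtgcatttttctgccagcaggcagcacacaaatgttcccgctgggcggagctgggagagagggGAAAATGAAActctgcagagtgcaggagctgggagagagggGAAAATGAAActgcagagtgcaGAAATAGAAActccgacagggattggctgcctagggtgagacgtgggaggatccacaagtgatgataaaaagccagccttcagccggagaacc
IFITM3, chr11:320861-321110, minus strand: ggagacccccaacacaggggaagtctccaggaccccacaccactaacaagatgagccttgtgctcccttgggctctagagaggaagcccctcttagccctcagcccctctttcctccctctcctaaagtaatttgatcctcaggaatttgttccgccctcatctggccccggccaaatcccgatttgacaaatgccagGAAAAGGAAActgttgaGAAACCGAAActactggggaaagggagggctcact
EPSTI1, chr13:42992242-42992491, minus strand: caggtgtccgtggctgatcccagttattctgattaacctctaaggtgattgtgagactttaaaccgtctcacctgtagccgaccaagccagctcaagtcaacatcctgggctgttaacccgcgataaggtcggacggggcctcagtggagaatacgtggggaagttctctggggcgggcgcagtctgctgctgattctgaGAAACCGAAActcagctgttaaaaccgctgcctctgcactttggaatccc
LAP3, chr4:17576948-17577197, plus strand: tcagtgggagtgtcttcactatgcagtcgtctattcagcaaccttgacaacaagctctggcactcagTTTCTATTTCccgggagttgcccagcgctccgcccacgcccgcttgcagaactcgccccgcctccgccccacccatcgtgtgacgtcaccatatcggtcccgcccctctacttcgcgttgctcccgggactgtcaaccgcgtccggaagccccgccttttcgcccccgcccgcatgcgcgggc

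Positions are counted from the start site and given for the first printed base of a match. They were -143 and -12 in OAS3 (2 matches) and -52 and -35 in IFITM3 (2 matches). In IFI6 they ran from -156 to -93 (3 matches), and they were -50 in EPSTI1 and -183 in LAP3. Promoter windows of 250 bases before to 50 after the start were matched to 12326 of 16238 tested symbols, and 333 of them (2.7%) held the motif. It was in 26 of 38 interferon-stimulated genes with a window (68.4%), in 17 of the 24 called higher (70.8%) and in 9 of the 14 not called higher (64.3%). Among all genes it was in 52 of 1260 called at least 2-fold higher (4.13%), 10 of 361 called at least 2-fold lower (2.77%) and 107 of 4250 not called (2.52%). A match is a description of the letters.

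**Figure D3:**
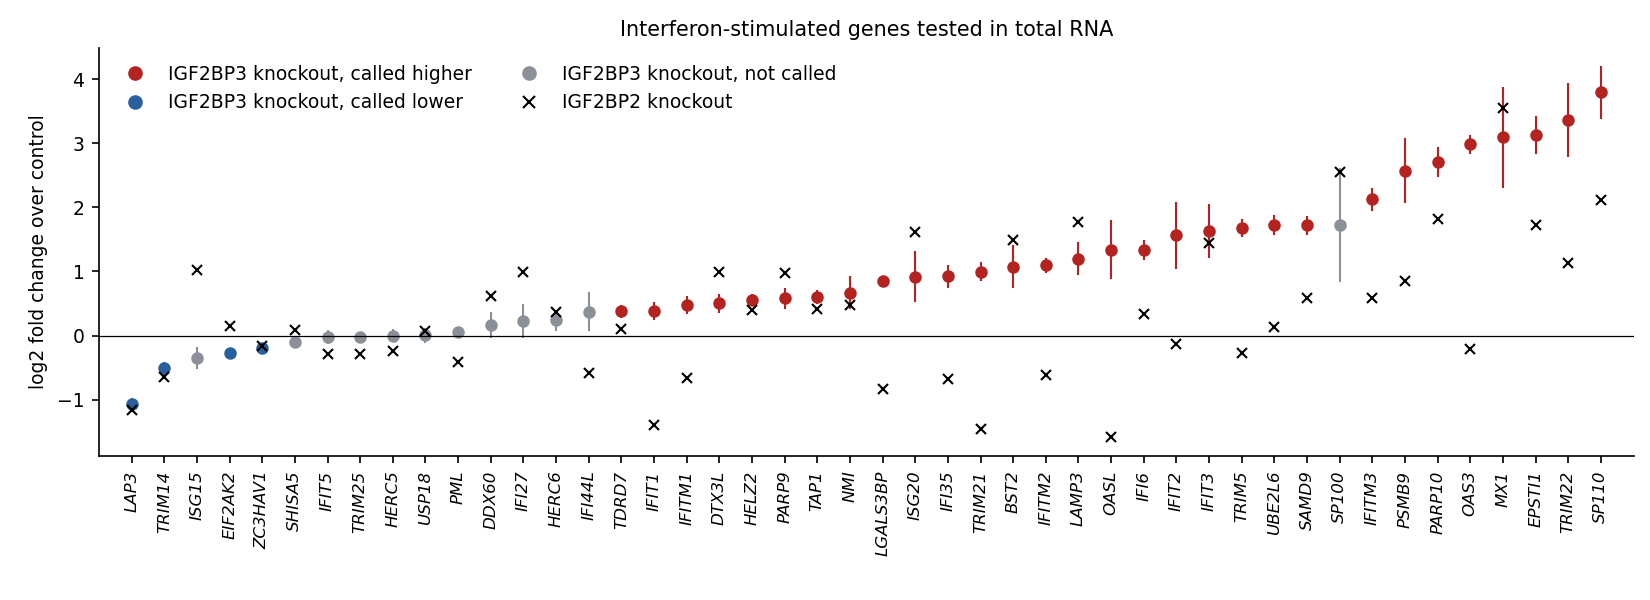
Log2 fold change over control of 46 interferon-stimulated genes tested in total RNA, with bars of 1 SE for the IGF2BP3 knockout and crosses for the IGF2BP2 knockout; GBP2, at 1 read in the controls, is left out. Most points lie above 0 and 4 are called lower, LAP3 lowest.

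The genes that lie upstream of this programme did not move one way. IFNB1 and IFNL1, which encode interferons, were at 0 in all 6 libraries. Of 29 nucleic acid sensors and adaptors 19 were tested, with 5 higher and 5 lower (52.6% called, below the share of all genes). IRF7, a transcription factor that induces interferon genes, was at 1.47, 0.892, 1.45 and 1.17 CPM in controls and 5.54 and 6.77 CPM in the knockout, a rise of 2.20 (edgeR adjusted p = 1.16e-09) and its level in the IGF2BP2 knockout was 0 and 0.0405 CPM. NLRP1, an inflammasome sensor, rose by 3.47, from 8 reads in the same-batch controls. The sensor RIGI had 1.39, from 13 such reads, a call lost under 6 alternatives. For RIGI control 2, at 1.003 CPM, lay above the knockout libraries at 0.935 and 0.967 CPM. Its log2 fold change in nuclear RNA was -0.46 (edgeR adjusted p = 0.375). MYD88, the adaptor of Toll-like receptors, was at 10.4, 10.4, 11.5 and 12.6 CPM against 2.81 and 3.09 CPM and fell by 2.03. IRF3 and ADAR fell by 0.40 and 0.36.

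In the JAK-STAT list 24 of 26 genes were tested, 11 higher and 8 lower (79.2% called), and their median of 0.01 changed sign on the log2(FPKM + 1) scale and without knockout library 2. The feedback inhibitor SOCS3 (1.56), the phosphatase PTPN6 (1.47) and IRF9 (0.64, lost under 3 alternatives) were higher. SOCS2, CISH and JAK1 fell by 0.70, 0.67 and 0.43, of which CISH lost its call with DESeq2. STAT2 rose by 0.55. Of the NF-kappaB pathway 22 of 29 were tested, 10 higher and 4 lower (63.6% called, near the share of all genes): the chemokine CXCL8 (3.68), the apoptosis inhibitor BIRC3 (3.35) and the adhesion molecule ICAM1 (2.87) rose most, each from 4 or 5 reads in the same-batch controls, and NFKBIB (-0.69), NFKB1 (-0.53) and CHUK (-0.33) were lower. Of 17 MHC class I genes tested 10 were higher and 2 lower (70.6% called). ERAP2, a peptidase that trims peptides for presentation, was at 3.48, 4.40, 3.40 and 3.20 CPM against 18.8 and 16.7 CPM and rose by 2.43. PSMB9, an immunoproteasome subunit, and ERAP1 rose by 2.57 and 1.24. The transporter TAP2 fell by 0.72.

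Immediate early genes, the first transcripts induced by growth factors and stress, were 21 higher and 3 lower of 32 (75% called), with a median of 0.81 and 1.43 in the IGF2BP2 knockout. EGR1 was at 14.6, 14.3, 13.99 and 13.6 CPM in controls and 79.7 and 84.6 CPM in the knockout, a log2 fold change of 2.57 (SE 0.08, edgeR adjusted p = 1.21e-20). FOS was at 8.20, 6.97, 3.35 and 3.45 CPM against 33.3 and 28.5 CPM and rose by 3.19. Its partner JUN, at 279, 287, 232 and 224 CPM against 167 and 166 CPM, moved the other way (-0.45), and was 1.22 in the IGF2BP2 knockout. ANKRD1, a target of YAP, rose by 2.92, and KLF6 fell by 0.73.

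The insulin-like growth factor axis was higher in 11 and lower in 3 of 19 genes tested of 23 listed (73.7% called), with a median of 0.75 beside 0.90 in the IGF2BP2 knockout. Besides the ligand IGF2, the binding protein IGFBP7 rose from 0.962, 0.892, 0.999 and 0.984 CPM in controls to 8.83 and 7.97 CPM (3.08). IGFBP3, the main carrier of IGFs in blood, was at 0.0917, 0.112, 0.04995 and 0.0615 CPM in controls and 1.01 and 0.783 CPM in the knockout, and the secreted STC1 at 0.688, 0.112, 0.0999 and 0.0615 CPM against 4.38 and 3.27 CPM. Both were called higher, from 2 and 3 reads in the same-batch controls, too few for a fold. The receptor adaptors GRB14 and GRB10 fell by 1.71 and 0.88, and IRS4 had -0.27, lost under upper quartile scaling and on the log2(FPKM + 0.1) scale. Imprinted genes, a class that includes IGF2, were 9 higher and 5 lower of 21 tested (66.7% called), fewer than were listed. MAGEL2 (4.40, from 6 reads in the same-batch controls) and CDKN1C (1.66) rose. MKRN3 (-3.84, with 7 reads left in the knockout libraries) and PLAGL1 (-1.01) fell.

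Genes of translation were lower nearly throughout. Of 78 cytosolic ribosomal protein genes 75 were called lower and none higher (96.2% called), with a median of -0.45 (-0.38 in the IGF2BP2 knockout), and both knockout libraries lay below the 4 controls for 71. Their summed level was 69390 to 75110 CPM in controls and 51200 and 49580 CPM in the knockout. Besides RPS2, RPL12, of the large subunit, fell by 0.94. Small nucleolar RNA host genes, many of which share a terminal oligopyrimidine start with ribosomal protein genes, were 19 lower and 2 higher of 26 tested (80.8% called), median -0.56. SNHG3 was at 182, 182, 195 and 188 CPM in controls and 65.8 and 70.8 CPM in the knockout (-1.49), SNHG19 and DANCR fell by 1.23 and 1.20, and SNHG6 rose by 0.37. The median of the ribosomal list stayed between -0.55 and -0.32 over the 19 alternatives.

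Of 23 glycolytic genes 17 were lower and 4 higher (91.3% called), median -0.61 and -0.83 in the IGF2BP2 knockout. HK2, the hexokinase of proliferating cells, was at 96.8, 97.3, 95.5 and 103 CPM against 26.01 and 26.3 CPM and fell by 1.92 (edgeR adjusted p = 2.44e-19). The glucose transporter SLC2A1 and the aldolase ALDOA fell by 1.50 and 1.33. ENO2, the neuronal enolase, rose from 20.4, 20.4, 18.9 and 17.8 CPM in controls to 75.9 and 73.6 CPM (2.02), and the muscle enolase ENO3 by 1.16. Nuclear-encoded respiratory chain subunits were 48 lower and 7 higher of 73 (75.3% called), median -0.33. NDUFB10, ATP5MC3 and UQCRFS1 fell by 0.98, 0.97 and 0.93, and COX6A1 rose by 0.41, a call lost with the IGF2BP1 knockout libraries in the fit. The counts for the 13 mitochondrially encoded mRNAs, not tested between kinds of RNA, were 5 higher and 2 lower in total RNA (53.8% called), 13 higher and 0 lower in nuclear RNA, and 3 higher and 7 lower in cytoplasmic RNA. Their median in total RNA, -0.02, changed sign under 6 alternatives, upper quartile scaling among them. Cholesterol and fatty acid synthesis was 17 lower and 10 higher of 32 (84.4% called): SQLE, CYP51A1 and FASN fell by 1.19, 0.95 and 0.75, and TM7SF2 and FADS2 rose by 1.85 and 1.56.

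Of 28 cyclins, their kinases and inhibitors, 10 were higher and 11 lower (75% called). Of the 7 inhibitor genes of the list 6 were called higher, and CDKN2A had -0.10 (edgeR adjusted p = 0.133). The transcription factor E2F1 and the phosphatase CDC25B, both of which act to drive the cycle, rose by 0.41 each. CDKN2B, the inhibitor p15 of CDK4 and CDK6, was at 7.29, 9.53, 8.04 and 10.3 CPM in controls and 41.8 and 41.4 CPM in the knockout, a log2 fold change of 2.20 (SE 0.10, edgeR adjusted p = 6.46e-17). CDKN1A, p21, was at 63.2, 60.5, 26.02 and 24.7 CPM against 75.96 and 71.2 CPM. Controls 1 and 2 were closer to the knockout than controls 3 and 4, and the log2 fold change of 1.54 fell to 0.75 and lost its call when batch was dropped. Besides CCND1, CCNE1 and CDK6 fell by 0.70 and 0.66. Of 38 genes of DNA replication and nucleotide synthesis 26 were lower and 4 higher (78.9% called), median -0.29: the helicase subunit MCM6 and the origin factors ORC1 and CDT1 fell by 1.02, 0.87 and 0.84. The p53 targets were 10 higher and 5 lower of 26 (57.7% called, near the share of all genes), with a median of -0.01 that changed sign under 6 alternatives, upper quartile scaling among them.

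Targets of ATF4, the transcription factor of the integrated stress response, were 8 higher and 16 lower of 31 (77.4% called), and 28 differed from the IGF2BP2 knockout (58% of all genes did). The median was -0.20 against 0.61 in the IGF2BP2 knockout, and became positive when batch was dropped or replaced by the library numbers. The controls themselves differed by batch. CTH, an enzyme of cysteine synthesis, was at 24.2, 24.9, 71.1 and 71.8 CPM in controls 1 to 4 and 31.8 and 33.8 CPM in the knockout, below its same-batch partners and above controls 1 and 2 (-1.13). The amino acid transporter SLC7A5, at 224, 217, 455 and 440.2 CPM against 239.6 and 243 CPM, showed the same arrangement (-0.89). Both lost their call when batch was dropped and turned positive when library numbers replaced batch, to 0.41 and 0.13. SLC1A5, at 303, 289, 429.8 and 447 CPM against 229.7 and 216 CPM, was below all controls (-0.98). The pro-apoptotic DDIT3 was at 7.70, 7.41, 10.1 and 11.8 CPM against 32.3 and 29.7 CPM and the glutathione-degrading CHAC1 at 7.20, 6.13, 17.4 and 17.5 CPM against 46.1 and 45.9 CPM, above all controls, with rises of 1.51 and 1.40. Of 19 unfolded protein response genes 11 were higher and 4 lower (78.9% called): the chaperones HSPA5 (0.56), CALR (0.49) and the secreted MANF (0.49) rose, and SDF2L1 fell by 0.50. HERPUD1 had -0.26, and turned to 0.32 with library numbers in place of batch and to 0.001 without batch.

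Of 38 collagens, laminins and matrix proteins tested of 44, 24 were higher and 12 lower (94.7% called), with a median of 0.48. THBS1, an adhesive matrix protein, rose by 3.95 next to COL12A1 and SPARC, and COL27A1, FBN1 and COL13A1 fell by 0.98, 0.60 and 0.56. Among integrins and collagen receptors, 11 higher and 4 lower of 23 (65.2% called), ITGA11, ITGA7 and ITGB4 rose by 2.43, 2.14 and 2.01, while ITGA4 and ITGA8 fell by 1.72 and 0.71 beside DDR2. Cadherins and junction genes were 10 higher and 9 lower of 25 tested of 36 (76% called): CDH4 (3.91), CLDN1 (3.08) and CLDN6 (2.76) rose, and TWIST2, ESRP2 and SNAI2 fell.

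Neuronal genes were 21 higher and 9 lower of 35 tested of 48 (85.7% called), median 0.53. SNAP25, a protein of synaptic vesicle fusion, was at 0.183, 0.112, 0.0999 and 0.123 CPM in controls and 6.02 and 5.25 CPM in the knockout (5.61). The neurofilament NEFH and the adhesion molecule L1CAM rose by 3.23 and 2.49. NEFM, the abundant neurofilament of HEK293T cells, was at 192, 198, 218 and 208 CPM against 32.1 and 35.9 CPM, and fell by 2.65 (SE 0.068, edgeR adjusted p = 1.31e-22). STMN2, a microtubule regulator of neurons, fell by 2.22. Clustered protocadherins, whose isoforms share exons, were 7 higher and 0 lower of 13 tested of 53 (53.8% called, below the share of all genes), with PCDHGC4 at 2.60. Members near 0 in the controls could pass the filter through the knockout alone. HOX genes were 16 lower and 7 higher of 38 (60.5% called, near the share of all genes), with a median of -0.08 that turned positive under upper quartile scaling. HOXC12 rose by 2.64 and HOXA13 by 0.71, and HOXD13 and HOXB9 fell by 0.89 and 0.88.

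Developmental signalling changed at single genes. SFRP1, a secreted WNT antagonist, was at 1.70, 1.12, 1.85 and 1.54 CPM in controls and 23.1 and 21.6 CPM in the knockout, a rise of 3.71 (edgeR adjusted p = 6.92e-18) beside -0.47 in the IGF2BP2 knockout. The ligand WNT9A rose by 3.48, WNT4 was at 0.0458, 0.334, 0.0999 and 0.0615 CPM in controls and 1.16 and 1.34 CPM in the knockout, called higher from 3 reads in the same-batch controls, and AXIN1 and LEF1 fell by 0.64 and 0.59. The WNT list was 18 higher and 8 lower of 38 (68.4% called). In the Notch list, 13 higher and 4 lower of 28 (60.7% called, near the share of all genes), the effector HES5 (3.76), the ligand JAG1 (2.28) and the glycosyltransferase MFNG (2.23) rose and NUMBL (-1.06) and HES4 (-0.67) fell. In the TGF-beta and BMP list, 14 higher and 13 lower of 42 (64.3% called), INHBE (3.49), the antagonist FST (2.96) and LTBP2 (1.92) rose and BMP2 (-1.80) fell. EYA1, a coactivator of kidney progenitors, was at 28.7, 29.2, 25.97 and 28.2 CPM in controls and 5.28 and 5.25 CPM in the knockout (-2.36), and its partner SIX2 fell by 1.19. OSR1, PAX2 and LHX1, further regulators of the early kidney, rose by 2.10, 1.19 and 1.18.

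Of 22 m6A writers, erasers and readers 15 were called lower and 0 higher (68.2% called), median -0.28: the methyltransferase METTL5, the demethylase FTO and the reader HNRNPC fell by 0.98, 0.75 and 0.71. Decay and granule factors were 23 lower and 7 higher of 46 (65.2% called), with a median of -0.14. Of 32 chromatin modifiers tested, 10 were lower and 4 higher (43.8% called, below the share of all genes). The corepressor TRIM28, the demethylase KDM1A and the deacetylase HDAC2 fell by 0.88, 0.62 and 0.60, and KDM6B rose by 1.16.

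**Figure D4:**
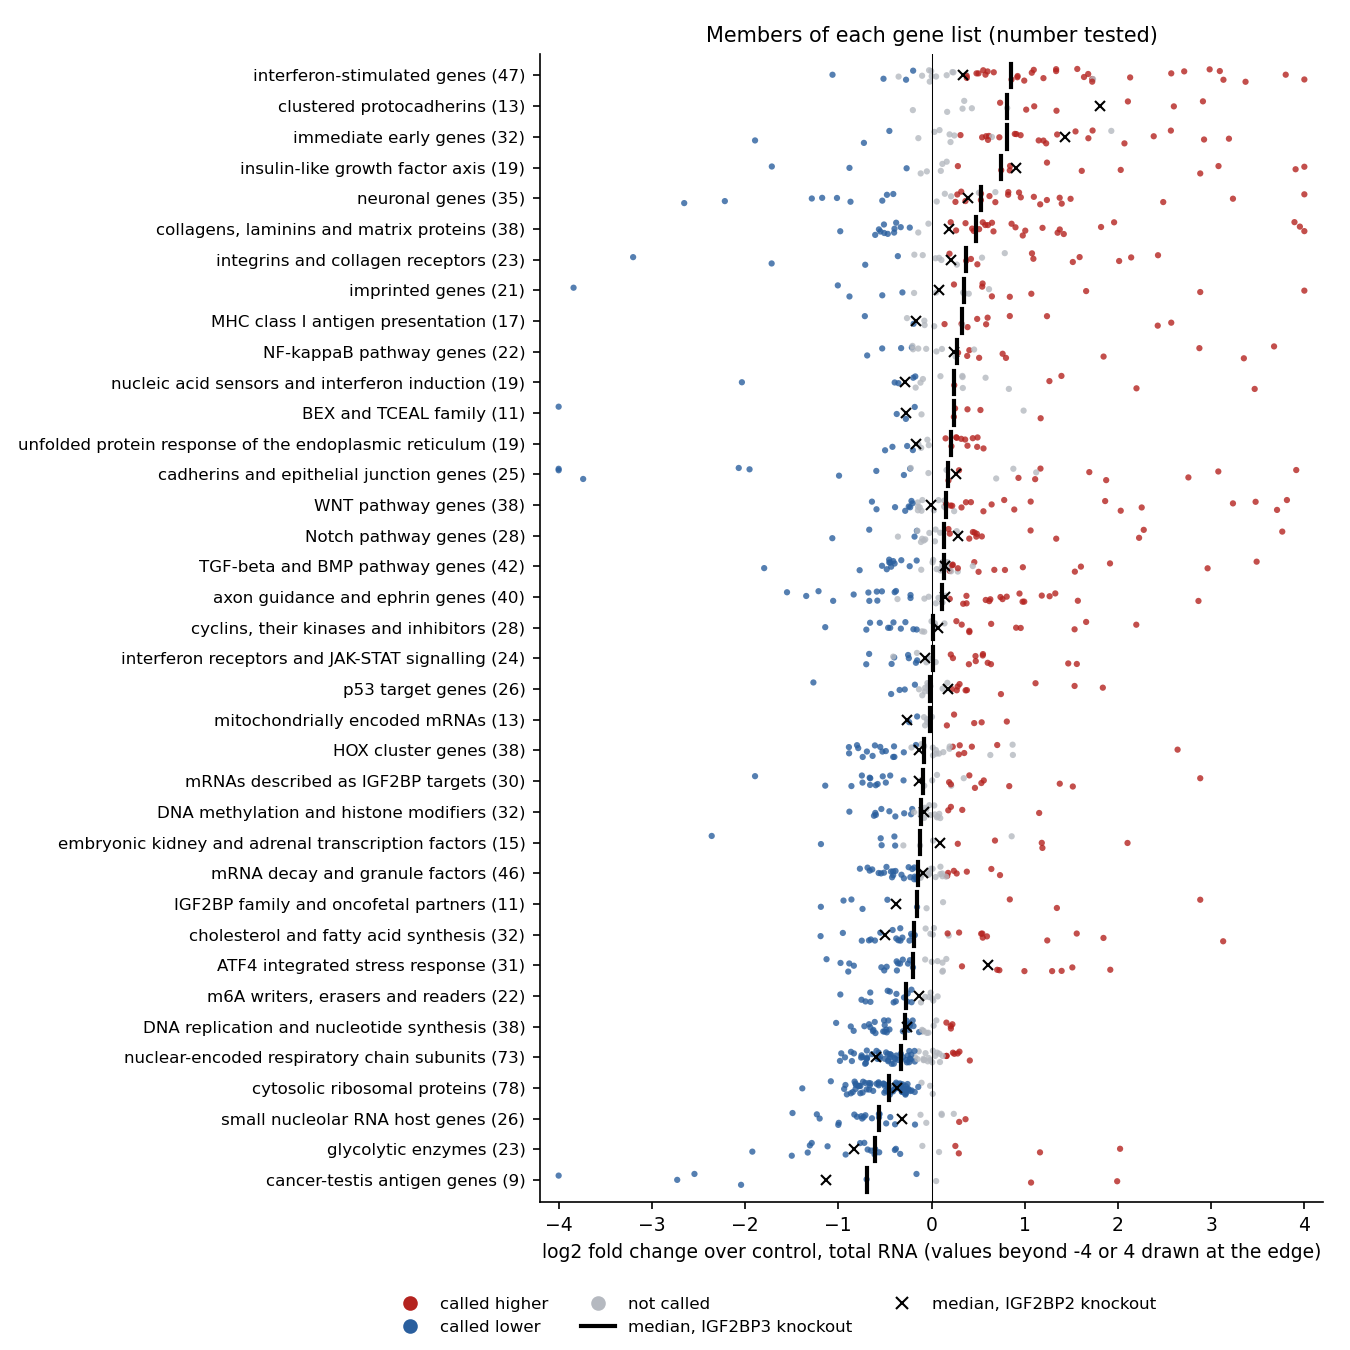
Log2 fold change over control of each tested member of the gene lists, 1 point a gene colored by call, with a bar at the median in the IGF2BP3 knockout and a cross at the median in the IGF2BP2 knockout. Medians run from cancer-testis antigen genes at -0.70 and glycolytic enzymes at -0.61 to interferon-stimulated genes at 0.86.

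Genes also moved with their place in the genome. Of 692 tested genes on chromosome 2 that start at or above 90 Mb, a boundary chosen after the values were seen, 387 were called lower (55.9%) and 83 higher (12%), against 30.6% and 29.7% of all genes. Their median was -0.41, -0.41 in the batch 3 pair and -0.40 in the batch 4 pair, and it was -0.44 in nuclear and -0.43 in cytoplasmic RNA. The IGF2BP2 knockout had 0.11 there, and 483 of the 692 were lower and 26 higher in the IGF2BP3 than in the IGF2BP2 knockout by the test between them. The 15 windows of 10 Mb beyond the boundary had medians of -0.66 to -0.19, and 10 of the 20 lowest of 275 windows lay on chromosome 2. The lowest 3 were 100 to 110 Mb (-0.66), 190 to 200 Mb (-0.61) and 160 to 170 Mb (-0.57) of that chromosome. Chromosome 21 was higher: 111 of 206 genes were called higher and 18 lower, with a median of 0.48 against -0.16 in the IGF2BP2 knockout. IFNAR1 and IFNAR2, the chains of the type I interferon receptor, are on chromosome 21 and rose by 0.47 and 0.55. Of the genes named above, TWIST2, ITGA4, GRB14, MCM6, METTL5, ATP5MC3 and HOXD13, all called lower, lie beyond the 90 Mb boundary of chromosome 2, and so does SP110, which rose.

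Chromosomes 16 (-0.26), 19 (-0.20) and 7 (-0.18) had lower medians and chromosomes 15 (0.23), 11 (0.20) and 17 (0.19) higher ones. The highest windows were 70 to 80 Mb of chromosome 13 (0.89, 24 of 28 genes higher), 30 to 40 Mb of chromosome 18 (0.87, 36 of 45 higher) and 90 to 100 Mb of chromosome 15 (0.60, 38 of 59 higher). In the IGF2BP2 knockout chromosome 11, which holds IFITM3, TRIM5 and IRF7, had a median of -0.47. For the interferon-stimulated genes the windows around them had medians of 0.33 (IFITM3, TRIM5 and IRF7), 0.12 (OAS3), -0.06 (EPSTI1) and -0.03 (IFI6) in the IGF2BP3 knockout, under the changes of those genes. DNA copy number was not measured, and its part in these shifts was not tested.

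**Figure D5:**
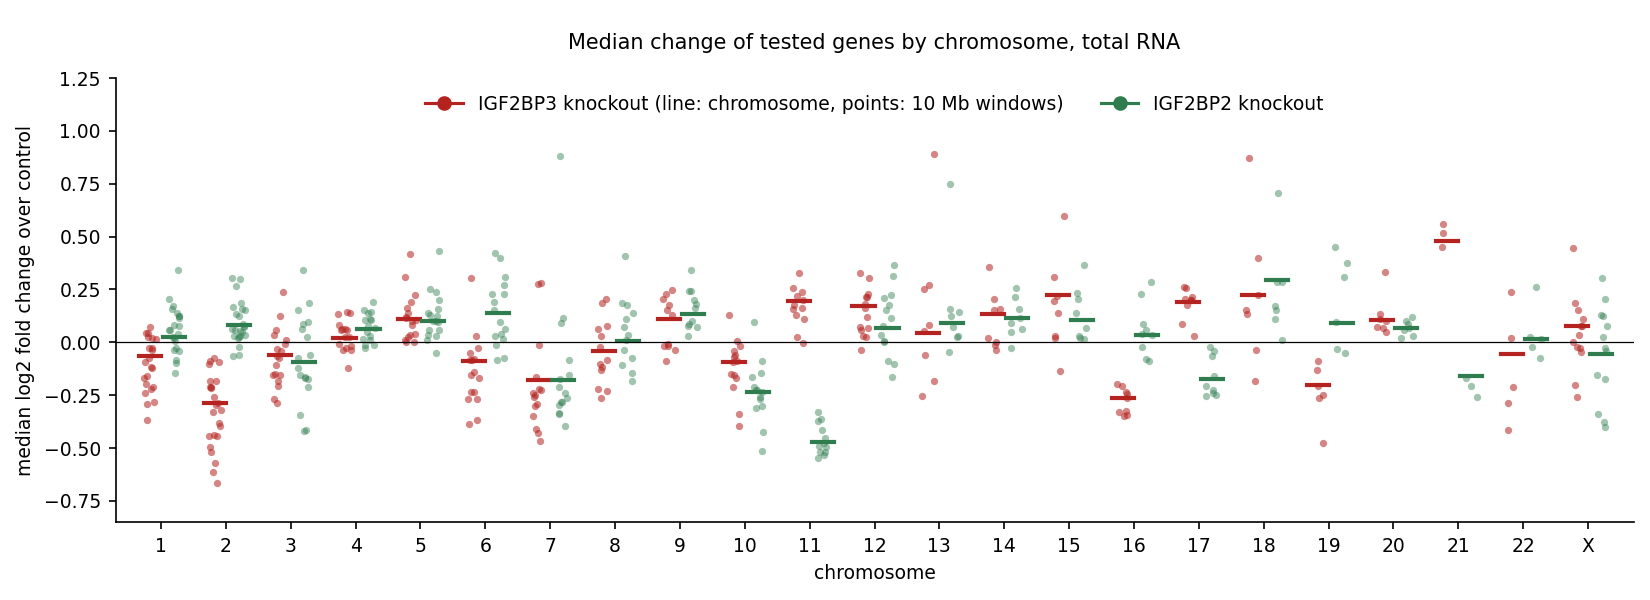
Median log2 fold change over control of tested genes on each chromosome (lines) and in windows of 10 Mb (points) in the IGF2BP3 and IGF2BP2 knockouts. In the IGF2BP3 knockout chromosome 2 lies low and chromosome 21 high, at 0.48, and in the IGF2BP2 knockout chromosome 11 lies at -0.47.

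The change was shared by the fractions for most genes. Of 2491 genes called at least 2-fold in total RNA and tested in all 3 kinds of RNA, 2000 were called in the same direction in nuclear and cytoplasmic RNA. Between the knockouts, 10698 genes (58%) differed, and of the 2804 genes called at least 2-fold in the IGF2BP3 knockout 1719 did. AMOT, ESRP2, SPARC, OAS3 and SFRP1 were among those that differed, whereas the difference did not pass the test for LAMB2, IGF2BP1 and CD44.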

How the data were processed

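Poly(A) RNA was sequenced as stranded paired-end libraries, per the labels' protocols. The submitters' processing notes name STAR, featureCounts, DESeq2 1.44.0 and GRCh38, with no role or order given. The authors deposited 1 table of raw counts per gene and 1 of FPKM values, each over 62703 gene identifiers. Identifiers without a symbol numbered 20403 and held 0.478 to 0.699% of the counts, and they stayed in the fits. No column lacked a sample.

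Counts were fitted with edgeR 4.0.16 (R 4.3.3): TMM scaling, filterByExpr by group, and the quasi-likelihood F test with genotype and batch as terms over 4 control, 2 IGF2BP2 knockout and 2 IGF2BP3 knockout libraries, with Benjamini-Hochberg adjustment at 0.05. The IGF2BP1 knockout was left out of that fit because its total RNA library 2 holds the same counts as a nuclear library. With a batch term, control libraries 1 and 2, alone in their batches of this fit, add to neither the fold change nor the residual spread, and 2 residual degrees of freedom remained. Nuclear and cytoplasmic RNA were fitted likewise, without the cytoplasmic libraries of batch 5. Same-batch pairs come from the batch labels. Deviations from the group means correlated at -0.12 between control and knockout of the same batch. Alternatives were other scalings and filters, DESeq2 1.42.0, limma 3.58.1 on log2(FPKM + 1) and log2(FPKM + 0.1), other blocks and leaving out each library. The scripts were tested on simulated data.

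Named were the IGF2BP genes, the 10 strongest rises and 10 strongest falls among called genes of at least 10 CPM outside the control range, the 5 largest changes of CPM each way, up to 3 called genes each way per list, and genes marked as chosen after their values were seen. STAT2, ZC3HAV1, IFNAR1, IFNAR2, CDKN2A, E2F1, CDC25B, further list members given by level, and the printed promoters were chosen that way too. The members and lists were chosen with earlier results of these data known. Annotation was GENCODE 29. Reads of paralogs, pseudogenes and overlapping genes may be split or shared, and how the counting treated them is not given in the sources used here. Some genes that the rule names are not reported here.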

Additional observations from a re-analysis of the deposited data

Results flagged for a closer look

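Of 211 genes with control levels examined, 6 had a control library far from the other controls, by the gap to its nearest neighbour over the group's range, and chance gives about 1 in 20. GBP2 was at 0.0557 CPM in control 2 and at 0 in the others, a single read. ICAM1 was at 0.334 CPM in control 2 against 0.0917 to 0.123 CPM, PSMB9 at 0.0557 CPM in control 2 against 0.183 to 0.200 CPM, and STC1 at 0.688 CPM in control 1 against 0.0615 to 0.112 CPM. These are levels of few reads. ATP5MC3 was at 283 CPM in control 4 against 247 to 251.5 CPM, and LHX1 at 2.46 CPM in control 4 against 3.71 to 3.95 CPM.

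Among those 211 genes, the direction differed between nuclear and total RNA, in both same-batch pairs, for 1 gene called in both. Other genes were not examined for this. MT-CO1 had a log2 fold change of 0.54 in nuclear RNA (edgeR adjusted p = 4e-06) and -0.24 in total RNA. The difference between the RNA kinds was not tested, and its call in total RNA was lost under 7 alternatives.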

How the results depend on the processing

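Over 19 alternatives, 3861 of 3950 values of the 209 called genes followed kept direction and call, 85 in 26 genes lost the call and 4 reversed. The reversals were CTH (0.41), SLC7A5 (0.13) and HERPUD1 (0.32) with the replicate block by the numbers of the titles, and HERPUD1 (0.001) with batch dropped. The 2 genes followed that were not called, CDKN2A among them, both gained a call under some alternatives, in 6 of 38 values. CDKN2A had 0.028 with upper quartile scaling. At 2-fold or more, 2804 genes were called, 1764 with a filter of a mean of 1 CPM, 237 on log2(FPKM + 1) and 1089 on log2(FPKM + 0.1). Between the knockouts 10698 genes differed with edgeR and 6863 with DESeq2; the cause was not tested. DESeq2 called 7433 genes between knockout and control against 11126, and dropping batch 10485. The replicate block by numbers gave 12332 calls and the crossed replicate block, chosen after seeing the data, 11966. Leaving out 1 library gave 9438 to 11150 calls and 2568 to 2841 at 2-fold. Medians of 11 lists changed sign under at least 1 alternative. With 2 residual degrees of freedom and 1 clone, the spread between clones is not measured. At depths of 17466110 counts or more, levels under 1 CPM rest on few reads.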

Other observations

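Guidance receptors were mixed: of 40 axon guidance and ephrin genes tested of 44, 18 were higher and 14 lower (80% called), with a median of 0.12. NRP2, a semaphorin and VEGF receptor, was at 29.3, 30.5, 27.3 and 29.6 CPM in controls and 9.02 and 10.5 CPM in the knockout and fell by 1.55 (edgeR adjusted p = 6.67e-14), beside -0.41 in the IGF2BP2 knockout. It lies on chromosome 2 beyond 90 Mb. UNC5C, a netrin receptor, was at 24.8, 24.8, 27.2 and 23.4 CPM against 10.3 and 9.67 CPM and fell by 1.34, beside -1.25. The ephrin EFNA1 was at 7.43, 6.47, 5.00 and 4.98 CPM against 15.3 and 14.2 CPM and rose by 1.57. PLXNA4, a plexin, was at 0.688, 0.725, 0.200 and 0.431 CPM against 2.32 and 2.17 CPM (2.86), a call lost on both FPKM scales. In NRP2 and UNC5C both knockout libraries were below the 4 controls, and in EFNA1 and PLXNA4 above them.

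Few X-linked cancer-testis genes were measurable: 9 of 44 were tested, with 6 lower and 2 higher (88.9% called beside 60.3% of all genes). Their median was -0.70, and the members named here, MAGED2 and TKTL1, rose against that direction. MAGED2 was at 168, 163, 139 and 149.9 CPM in controls and 313 and 292 CPM in the knockout and rose by 1.07 (edgeR adjusted p = 1.3e-14), beside 1.30 in the IGF2BP2 knockout. TKTL1, a transketolase relative, was at 0.733, 0.446, 0.549 and 0.554 CPM against 2.02 and 2.44 CPM (1.99). In the BEX and TCEAL family of the X chromosome, 11 of 14 were tested, with 5 higher and 4 lower (81.8% called). BEX1 was at 2.61, 2.45, 3.10 and 3.51 CPM in controls and 0.0748 and 0.184 CPM in the knockout, and fell by 4.67 (edgeR adjusted p = 1.32e-09). TCEAL3 was at 2.98, 3.85, 2.70 and 3.14 CPM against 6.17 and 6.96 CPM and rose by 1.17. Neighbours of one family thus moved in both directions, with both knockout libraries outside the control range in BEX1 and TCEAL3.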
